A study of Homo sapiens with 2 samples.

Results

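Translation initiation factors are the proteins that load the initiator tRNA and the messenger RNA onto the small ribosomal subunit, find the start codon and join the large subunit. Their genes were examined in the established human glioblastoma line U87 after activation of the liver X receptor (LXR), a nuclear receptor that senses oxidised cholesterol. Members were all genes of the deposited expression table whose symbol begins with EIF and a digit and holds no hyphen, leaving out the 4 kinases EIF2AK1 to EIF2AK4 and pseudogenes. This gave 47 genes of 22458 named genes, out of 54 symbols of that form, of which 2 held a hyphen, 4 were kinases and 1 was a pseudogene. EIF3C, EIF4A1 and EIF4G3 were not analysed here.

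Cells received 20 µM LXR623, a synthetic LXR agonist, or 0.1% DMSO, the solvent control, for 24 h in medium with 1.5% serum, and total RNA of each condition was measured on 1 Affymetrix array. With 1 array per group there was no replicate and hence no test, SD or p-value. Every difference below is log2 LXR623 minus log2 control, describes these 2 arrays, and has no replicate check. The number of arrays limits the precision. In bulk RNA, fewer cells of a type and less RNA per cell cannot be told apart. ABCA1, a cholesterol pump and direct LXR target, served as a check of the treatment and was at log2 10.09 with LXR623 and 8.30 in control, 3.46-fold higher. The culture text of the labels names HCT116, a colon carcinoma line, whereas all other labels name U87. All 6 measured markers of glioma or mesenchymal lines were above the array median, ranging over log2 5.39 to 12.46 with LXR623 and 5.67 to 12.09 in control. Of 11 colon epithelial markers, 3 were above it, with a range over the list of 3.08 to 5.76 with LXR623 and 2.86 to 6.0 in control. Of 5 astrocyte markers 1 was above it (range over the list 2.65 to 6.87 with LXR623 and 2.54 to 7.76 in control), and GFAP, which defines that cell type, was at 4.68 with LXR623 and 4.76 in control.

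Initiation is controlled mainly at 2 steps. The trimeric factor eIF2 brings the initiator tRNA and must be recharged with GTP by eIF2B, and phosphorylation of eIF2 alpha blocks that exchange and so lowers overall initiation while favouring a few messages such as ATF4. The cap-binding protein eIF4E recruits the scaffold eIF4G and the helicase eIF4A, and the eIF4E-binding proteins, encoded by the EIF4EBP genes, sequester eIF4E until the kinase mTORC1 phosphorylates them. The arrays measured mRNA and say nothing of phosphorylation.

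The initiation factor genes differed little between the arrays, apart from EIF4EBP1, which was 1.67-fold higher with LXR623. A level filter kept 45 of the 47 members (mean over both arrays of at least log2 3.39, the 25th percentile of all probe sets), and EIF4EBP3 and EIF5AL1 lay below it. Of the 45, 1 was at least 1.5-fold higher and none was at least 1.5-fold lower, beside 2.38% higher and 2.01% lower among the 16902 genes kept. At a smaller limit, a log2 difference of 0.32 in either direction, 5 members were higher (11.1%) and 1 was lower (2.22%), beside 10.7% higher and 9.48% lower among all genes kept. The share of higher members thus lay near that of all genes, and the share of lower members was below it. The 5 higher members were EIF4EBP1, EIF2S2, EIF1B, EIF4E1B and EIF6, and the lower member was EIF3J. With each array centred on its own median, which lowers every difference by 0.040, the split was 3 higher and 2 lower. EIF4E1B and EIF6 no longer reached the limit and EIF2B3 did. The share of all genes past this limit was not computed after centring. At 1.5-fold, centring changed the calls among all genes from 402 higher and 339 lower to 319 higher and 427 lower.

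The median difference of the 45 members was 0.01, beside 0.00 for all genes kept, and 24 members were above 0 (53.3%) and 21 below (46.7%), beside 48.8% above and 48.3% below among all genes. After median centring of the arrays the members' median was -0.03, so its sign depended on the scaling. Centring lowers all genes by the same amount, so the place of the members among all genes did not change. The interquartile range of the members ran between -0.10 and 0.15, and that of all genes between -0.15 and 0.17. The median size of the difference, regardless of sign, was 0.11 among members and 0.16 among all genes. Members were mostly bright, and the median size was smaller at higher levels, being 0.18 in the dimmest of 5 equal level groups and 0.13 in the brightest. The brightest group held 32 of the members. There the median size was 0.11 for members and 0.13 for all genes, and 19 of the 32 members (59.4%) were above 0, beside 44.6% of its genes. Past the smaller limit there, 4 members were higher (12.5%), beside 6.98% of its genes, and 0 were lower, beside 6.45%. EIF4EBP1 was the 1 member outside the central 95% of differences at its level, which ran from -0.46 to 0.53 in the brightest group. The other 44 lay inside the range of their own level group, which holds 95% of that group's genes by construction.

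**Figure D1:**
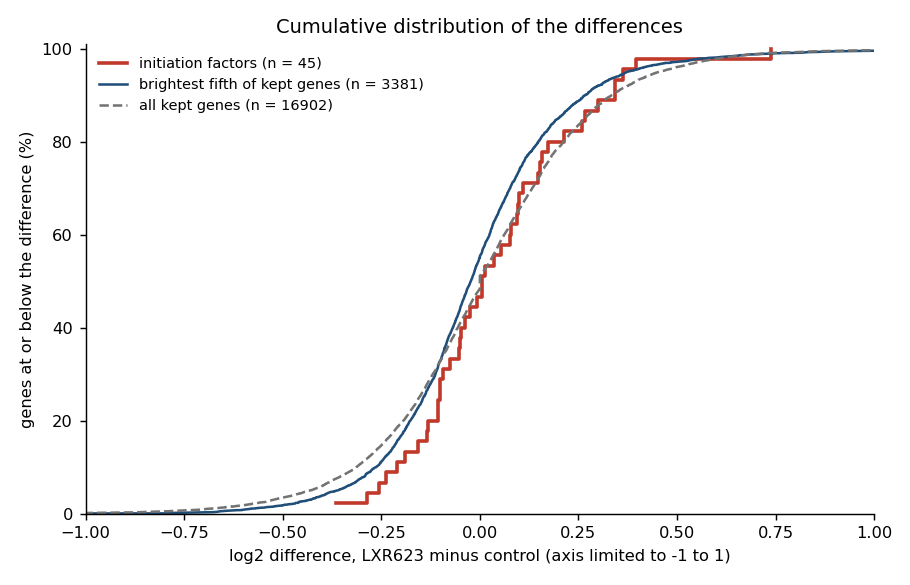
Cumulative share of genes (percent, vertical axis) at or below each log2 difference, LXR623 minus control (horizontal axis), for the 45 initiation factors kept, the brightest of 5 level groups (n = 3381) and all 16902 genes kept. The curve of the members crosses the middle at 0.01, close to the other curves, and runs from -0.36 to 0.74, the value of EIF4EBP1. Both other curves hold far more genes and extend further on either side.

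By the number in the symbol, the group medians ran from -0.09 for EIF5 to 0.46 for EIF4EBP. The EIF1 group had a median of 0.26 over 5 genes, EIF2 of -0.06 over 10, EIF3 of 0.03 over 12 and EIF4 of -0.04 over 11. EIF5 had a median of -0.09 over 4 genes, EIF4EBP of 0.46 over 2, and EIF6, a single gene, was at 0.34. The sign of the EIF3 median changed with median centring, to -0.01, and the mean of the EIF4 group was 0.01. Differences ran from -0.11 to 0.36 in EIF1, -0.29 to 0.40 in EIF2, -0.36 to 0.21 in EIF3 and -0.21 to 0.34 in EIF4, so that these groups overlapped. Group medians are described side by side, with no test.

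**Figure D2:**
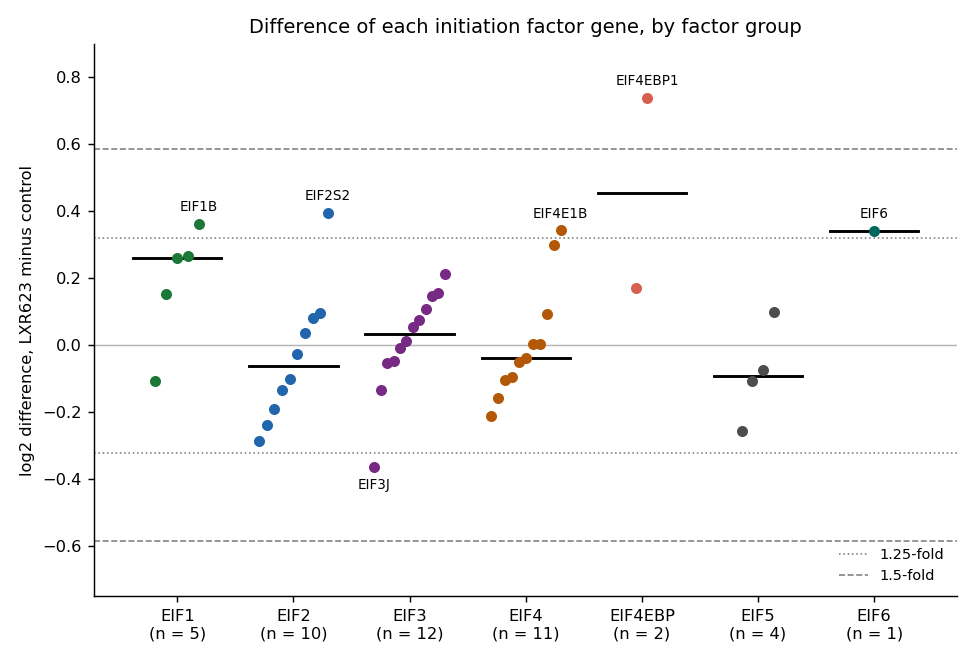
Log2 difference, LXR623 minus control (vertical axis), of each initiation factor kept, 1 point per gene, by factor group, with the median of each group as a black line and differences of 0.32 as dotted lines and of 0.58 (1.5-fold) as dashed lines. Genes past 0.32 are named. EIF4EBP1 alone lies beyond 1.5-fold, and EIF3J is the lowest member at -0.36.

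Of the eIF4E-binding proteins, which inhibit cap-dependent initiation, EIF4EBP1 was at log2 9.22 with LXR623 and 8.48 in control, a difference of 0.74. This was higher than the differences of 99.1% of all genes kept. In mouse pancreatic beta cells the gene is known as a target of ATF4. EIF4EBP2 was at 8.88 with LXR623 and 8.71 in control, 0.17 higher. EIF4EBP3 was at 2.90 with LXR623 and 3.19 in control, below the level filter, so that no direction was drawn from it. The group median of 0.46 therefore rests on 2 genes and is 0.17 without EIF4EBP1. Their common partner EIF4E, the cap-binding protein, was at 5.02 with LXR623 and 5.18 in control, a difference of -0.16.

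In the cap-binding and unwinding group, differences were small and of both signs. The scaffold EIF4G1 was at 9.11 on both arrays, and EIF4G2, a relative that lacks the eIF4E-binding part, was at 11.48 with LXR623 and 11.57 in control. Of the helicases, EIF4A2 was at 9.77 with LXR623 and 9.80 in control, and EIF4A3, which also belongs to the exon junction complex on spliced mRNA, was at 7.85 with LXR623 and 7.90 in control. Their cofactors EIF4B and EIF4H differed by 0.09 and 0.01. These 6 genes lay between -0.09 and 0.09, and the signs of EIF4G1 and EIF4H changed with the scaling. The relatives of EIF4E varied more. EIF4E2, which binds caps without supporting ordinary initiation, was at 8.81 with LXR623 and 9.02 in control, a difference of -0.21. EIF4E1B, known as a germline form, was at 5.66 with LXR623 and 5.31 in control, 1.27-fold higher, and EIF4E3 was at 4.90 with LXR623 and 4.60 in control, 1.23-fold higher. Of the 5 level groups, counted from the dimmest, EIF4E and EIF4E3 were in group 2 and EIF4E1B in group 3. All 3 lay inside the central 95% of differences at their level. EIF4ENIF1, which carries eIF4E into the nucleus and into P-bodies, was 0.10 lower with LXR623.

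The 3 subunits of eIF2 did not move together. EIF2S2, the beta subunit, was at 8.91 with LXR623 and 8.51 in control, 1.32-fold higher and at percentile 93.0 of all genes kept. EIF2S1, the alpha subunit that carries the regulatory phosphorylation site, was at 9.10 with LXR623 and 9.29 in control, 1.14-fold lower. EIF2S3, the gamma subunit that binds GTP and the initiator tRNA, was at 9.86 with LXR623 and 9.99 in control, 1.10-fold lower. The median of the trimer was -0.13 and its mean 0.024, so that its sign depended on the summary.

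Of the 5 subunits of eIF2B, 4 were lower with LXR623, beside 48.3% of all genes kept. EIF2B4 was higher, a sign that changed with median centring. The median of the 5 was -0.10. EIF2B3, part of the catalytic subcomplex, was at 7.41 with LXR623 and 7.70 in control, 1.22-fold lower. EIF2B1, in the regulatory subcomplex that senses phosphorylated eIF2, was at 8.42 with LXR623 and 8.65 in control, 1.18-fold lower. The catalytic subunit EIF2B5 was at 7.59 with LXR623 and 7.69 in control, a difference of -0.10. The regulatory subunits EIF2B2 and EIF2B4 differed by -0.03 and 0.04. None of the 5 reached 0.32 as deposited, and EIF2B3 did so, at -0.33, with the arrays centred on their medians. EIF2A and EIF2D, which can deliver initiator tRNA without eIF2, were higher by 0.10 and 0.08.

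Apart from EIF1AD, the genes of the EIF1 group encode factors that guide start codon selection. EIF1, which keeps the scanning ribosome open until a start codon is met, was at 10.74 with LXR623 and 10.48 in control, 1.20-fold higher. Its close relative EIF1B was at 8.80 with LXR623 and 8.44 in control, 1.29-fold higher. EIF1AX, which binds the ribosomal site where the next tRNA will enter, was at 7.26 with LXR623 and 7.10 in control, 1.11-fold higher. EIF1AY, the copy on the Y chromosome, was at 3.43 with LXR623 and 3.54 in control, just above the level filter. EIF1AD, a protein with an EIF1A-like domain, was at 8.44 with LXR623 and 8.18 in control, 1.20-fold higher. Thus 4 of the 5 genes were higher, beside 48.8% of all genes kept. All 4 lay inside the central 95% of differences at their level. EIF1 and EIF1B, and EIF1AX and EIF1AY, are pairs of similar sequence whose probes may share signal, so each pair is not 2 separate measurements for certain.

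EIF1 and EIF1B were both higher, and the 250 bases before their annotated starts (RefSeq, GRCh38.p14) are given to show what the pair has upstream. The EIF1 window is chr17:41688635-41688884 on the plus strand, with overlapping CCAAT boxes on opposite strands in capitals.
EIF1: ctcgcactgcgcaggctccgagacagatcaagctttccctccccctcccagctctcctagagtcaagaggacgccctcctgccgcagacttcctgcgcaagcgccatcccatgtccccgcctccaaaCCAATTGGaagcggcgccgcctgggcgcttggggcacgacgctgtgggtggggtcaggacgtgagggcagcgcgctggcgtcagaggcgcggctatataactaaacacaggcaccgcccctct
The EIF1B window is chr3:40309457-40309706 on the plus strand, with an E-box (CACGTG) in capitals.
EIF1B: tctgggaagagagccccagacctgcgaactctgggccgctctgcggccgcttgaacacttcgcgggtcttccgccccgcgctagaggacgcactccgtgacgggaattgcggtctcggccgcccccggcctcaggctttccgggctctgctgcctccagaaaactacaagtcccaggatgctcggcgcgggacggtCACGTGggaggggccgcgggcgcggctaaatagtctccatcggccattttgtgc
Neither window held TGATGNAA, the element bound by ATF4 with C/EBP proteins, TGACGTCA, the cyclic AMP response element, or CCGGAAG, the core bound by ETS factors, on either strand. The pair shared none of the 5 motifs searched in these windows.

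The eIF3 complex, the large scaffold that holds the small subunit open for mRNA, was measured through 12 subunits, and its largest difference belonged to a loosely bound one. EIF3J was at 6.51 with LXR623 and 6.87 in control, 1.29-fold lower, at percentile 7.60 of all genes kept. It was also the dimmest of the 12, as the others were all in the brightest level group, where differences were smaller. It lay inside the central 95% of differences at its level. The 7 measured subunits of the conserved core with PCI or MPN domains (EIF3A, EIF3E, EIF3F, EIF3H, EIF3K, EIF3L and EIF3M) lay between -0.13 and 0.11, with a median of -0.01. EIF3A, the largest subunit, was at 10.18 with LXR623 and 10.32 in control, and EIF3F, with the highest difference of the core (0.11), was at 10.03 with LXR623 and 9.93 in control. EIF3B, EIF3G and EIF3I, which form a mobile module near the mRNA entry, differed by 0.01, 0.21 and 0.15, the first of which changed sign with median centring. EIF3G was at 9.51 with LXR623 and 9.29 in control. EIF3D, a subunit that can itself bind caps of some mRNAs, was at 10.40 with LXR623 and 10.24 in control. Apart from EIF3J, the remaining 11 subunits lay between -0.13 and 0.21.

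Of the EIF5 and EIF6 genes kept, EIF5, EIF5B and EIF5A2 were lower, and EIF5A and EIF6 were higher. EIF5, which makes eIF2 hydrolyse its GTP at the start codon, was at 9.75 with LXR623 and 9.85 in control, and EIF5B, the GTPase that joins the large subunit, was at 9.02 with LXR623 and 9.10 in control. EIF5A, which despite its name helps the ribosome through difficult sequences during elongation, was at 5.29 with LXR623 and 5.20 in control. Its relative EIF5A2 was at 6.48 with LXR623 and 6.74 in control, 1.19-fold lower. EIF5AL1, a gene of near-identical sequence to EIF5A, was at 2.86 with LXR623 and 2.40 in control, both below the filter, and its probes may share signal with EIF5A. EIF6, which holds free large subunits apart from small ones, was at 9.39 with LXR623 and 9.05 in control, 1.27-fold higher and at percentile 90.5 of all genes kept.

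**Figure D3:**
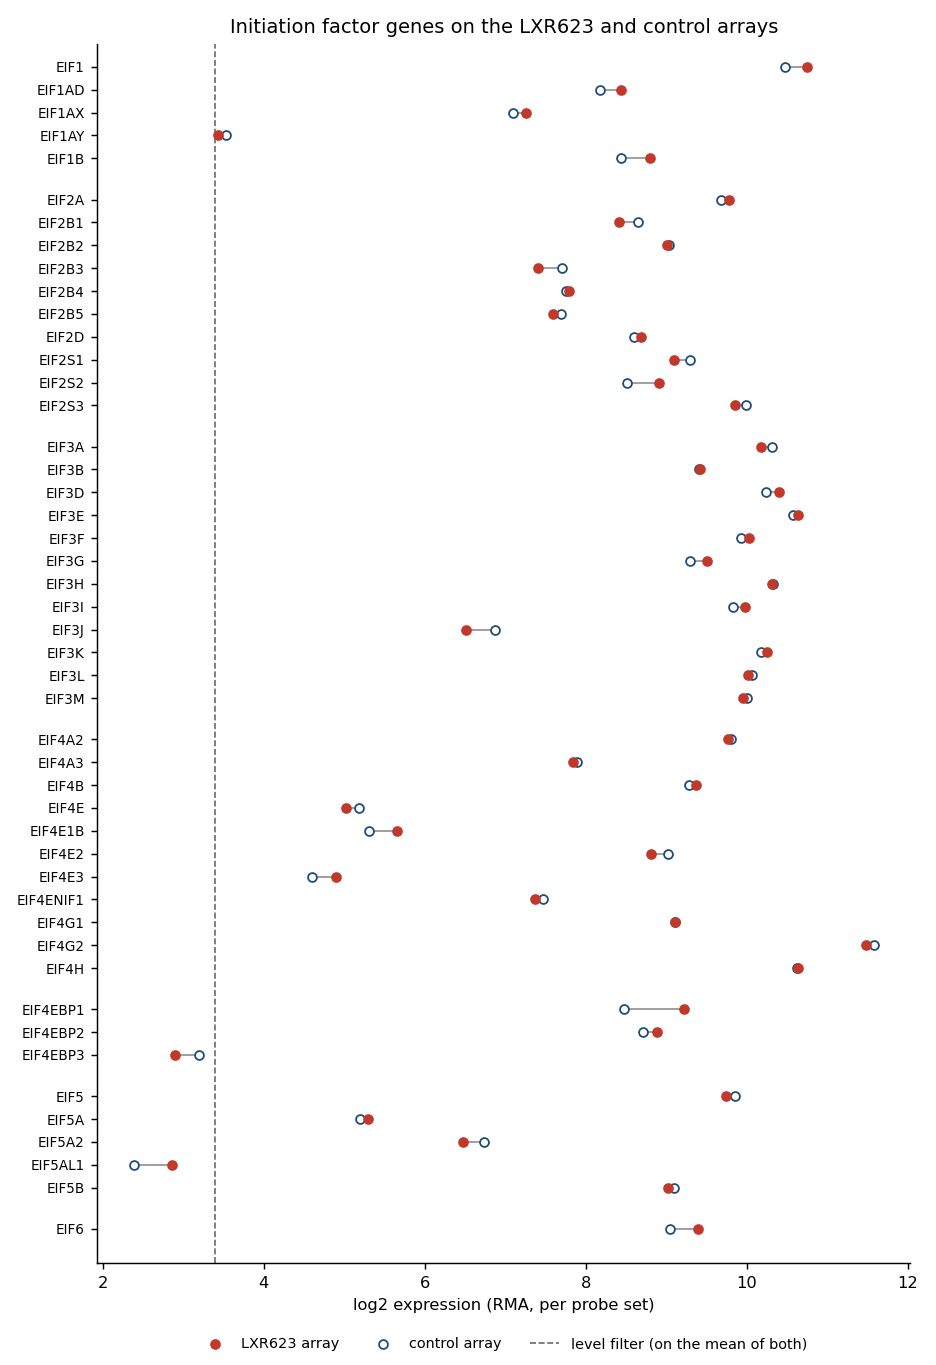
Log2 expression (horizontal axis) of the 47 initiation factor genes on the LXR623 array (filled red) and the control array (open blue), joined by a line, 1 gene per row in blocks by factor group, with the level filter as a dashed line. Most pairs of points nearly coincide, the gap of EIF4EBP1 (9.22 with LXR623 and 8.48 in control) is the widest, and EIF4EBP3 and EIF5AL1 lie left of the filter.

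Many mRNAs of the translation machinery begin with a terminal oligopyrimidine (TOP) tract, a C at the cap followed by a run of C and T, through which mTORC1 and LARP1 control their translation. A start was called TOP-like if the annotated first base was C and the next 4 were C or T. RefSeq promoter windows were matched for 40 of the 47 members, and EIF2S2, EIF3A, EIF3E, EIF3G, EIF3H, EIF3L and EIF4EBP1 had none. Of the 40, 9 (22.5%) had a TOP-like start, beside 5.14% of 27305 genes with a window. The annotated start can miss the base that a cell uses by some positions. The starts are shown with 10 bases before and 15 from the annotated first base on (GRCh38.p14), the first 5 transcribed bases in capitals. By the definition used, the tract sets these genes apart from the other members with a window. Members without a window could not be classed.
EIF2A, chr3:150546777-150546801, plus strand: cgagcggtttCTCTTtccgggacaa
EIF2D, chr1:206612451-206612475, minus strand: ccagccgggcCCTTTtcgcggccgg
EIF2S3, chrX:24054946-24054970, plus strand: gatttccttcCTCTTttggcaacat
EIF3D, chr22:36529152-36529176, minus strand: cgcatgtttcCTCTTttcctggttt
EIF3F, chr11:7987327-7987351, plus strand: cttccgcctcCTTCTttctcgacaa
EIF3K, chr19:38619178-38619202, plus strand: tttccaccacCTCTTcctgttcccg
EIF3M, chr11:32583821-32583845, plus strand: gcccagttccCTTTTccggtcggcg
EIF4A2, chr3:186783567-186783591, plus strand: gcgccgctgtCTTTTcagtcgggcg
EIF4B, chr12:53006446-53006470, plus strand: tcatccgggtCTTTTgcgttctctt
EIF6 and EIF4E1B, which were past a difference of 0.32 and had no such tract, are not shown. For comparison, these are the starts of 3 other members without it: EIF1B and EIF3J, past 0.32, and EIF1, at 0.27.
EIF1, chr17:41688875-41688899, plus strand: ccgcccctctGCCCCagtcactgag
EIF1B, chr3:40309697-40309721, plus strand: cattttgtgcGAGAAgccgcagcgc
EIF3J, chr15:44537137-44537161, plus strand: ccgccgtgctAACTCctcgctagct

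The 9 genes with a TOP-like start lay between -0.13 (EIF2S3) and 0.16 (EIF3D), with a median of 0.08, 6 of them above 0 and none past 0.32. The 29 kept members with a window but no TOP-like start had a median of -0.03 and ranged from -0.36 to 0.36, 14 of them above 0 and 4 past 0.32. The groups also differed in level: all 9 genes with a TOP-like start were in the brightest level group, where differences were smaller, whereas 13 of the 29 were dimmer, EIF3J and EIF4E1B among them. Within the brightest level group the 16 members without a TOP-like start had a median of 0.01 and ranged from -0.24 to 0.36, 9 of them above 0 and 2 (EIF1B and EIF6) past 0.32, beside 6.98% of all genes of that level group higher and 6.45% lower by as much. Of all genes of that level group, 44.6% were above 0. The range of the 9 genes lay inside that of the 16, no test was made, and the part of level in the comparison was not tested. EIF4EBP1 and EIF2S2, the kept members with the largest positive differences, entered neither group.

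In the whole windows of 300 bases, from 250 before to 50 after the annotated start and on either strand, TGATGNAA occurred in 1 of the 40 members (2.5%), EIF4E3, beside 4.46% of all genes with a window. TGACGTCA occurred in none, beside 2.25%. The E-box CACGTG occurred in 11 members (27.5%), beside 8.77% of all genes, and CCGGAAG in 11 (27.5%), beside 12.2%, while CCAAT occurred in 18 (45.0%), beside 39.7%. Genes with several starts counted if any window held the letters, and a match describes the letters alone.

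Other genes of translation had the same median size of difference as the initiation factors, 0.11. Of a list of 39, 36 were named in the table and 34 passed the level filter, and their median difference was 0.02 (-0.02 after median centring), with 18 above 0 and 16 below. Past 0.32, 3 of the 34 were higher and 2 lower, and 1, MKNK2, was at least 1.5-fold higher, beside the shares of all genes given above. MKNK2, a kinase that phosphorylates eIF4E on the eIF4G scaffold, was at 7.58 with LXR623 and 6.94 in control, 1.56-fold higher. Its relative MKNK1 was at 6.73 with LXR623 and 6.56 in control, 1.12-fold higher. PDCD4, which inhibits the helicase eIF4A, was at 7.41 with LXR623 and 7.18 in control, 1.17-fold higher. MCTS1, which works with DENR in reinitiation, was at 3.84 with LXR623 and 3.35 in control, and PAIP2B, an inhibitor of poly(A)-binding protein, was at 3.75 with LXR623 and 3.36 in control. The control levels of MCTS1 and PAIP2B lay below the level of the filter, so the sizes of their differences, 0.49 and 0.39, are uncertain. DENR itself was 0.20 lower, and the helicase DHX29, which helps initiation on structured leaders, 0.24 lower, the lowest of its list.

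ABCE1, which splits ribosomes after termination, was at 8.31 with LXR623 and 8.69 in control, 1.31-fold lower. The highest gene of the termination list was the rescue factor PELO at 0.23. Of the 7 elongation genes kept, EEF1A2, a tissue-restricted form of the tRNA carrier eEF1A, was at 5.29 with LXR623 and 5.61 in control, a difference of -0.32, and EEF1B2, an exchange factor for eEF1A, was the highest at 0.18. Among poly(A)-binding proteins and partners, PABPC1L was the lowest at -0.14. The mitochondrial factors MTIF2 and MTIF3 differed by -0.11 and 0.04, and DHPS and DOHH, which make the hypusine residue of eIF5A, by 0.09 and -0.01. Of the 5 genes past 0.32, 2 thus had control levels under the filter.

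**Figure D4:**
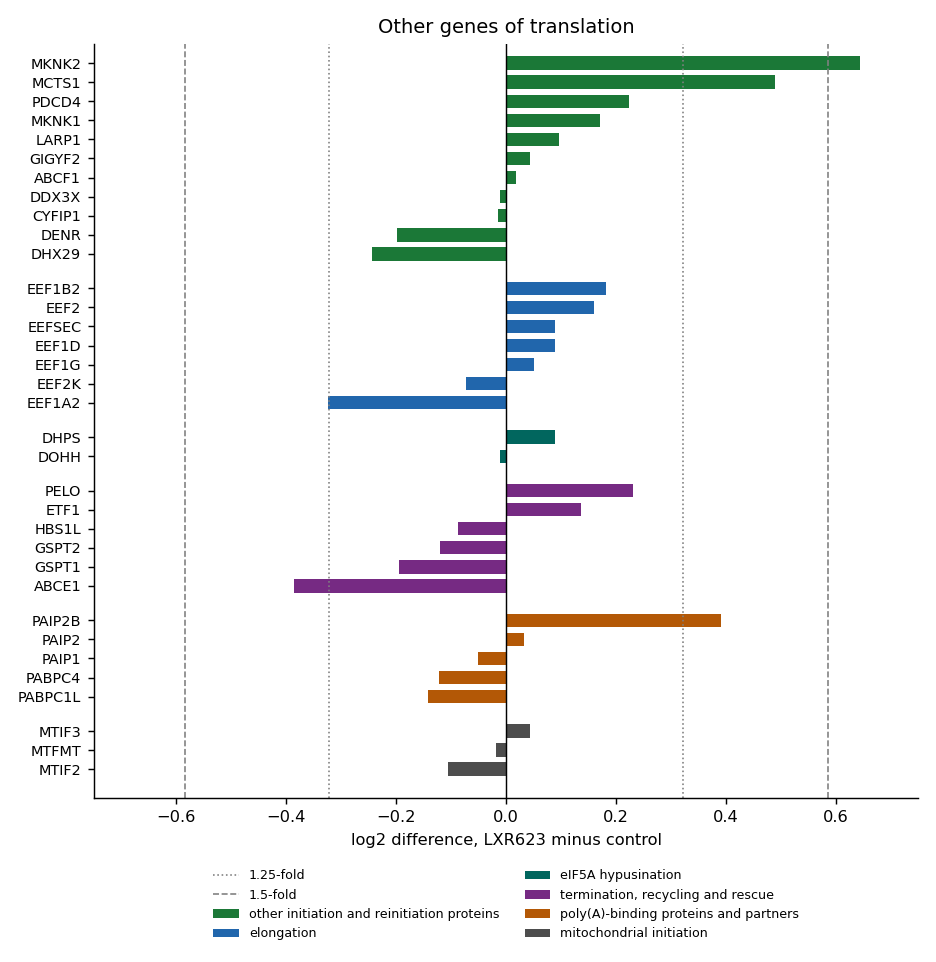
Log2 difference, LXR623 minus control (horizontal axis), of the 34 other translation genes kept, 1 bar per gene, coloured by list and ordered by difference within it, with differences of 0.32 as dotted lines and of 0.58 (1.5-fold) as dashed lines. MKNK2 at 0.64 is the 1 gene beyond 1.5-fold, and ABCE1 is the lowest at -0.39.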

How the data were processed

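Biotin-labelled RNA from either condition went onto a single array. The authors deposited log2 values, 1 per probe set, made by RMA (background correction, quantile normalisation, median polish) with affy 1.36.1 in R 2.15.1, per the submitters' processing notes. A genome build is not given in the sources used here. A shift common to most genes is removed by quantile normalisation, and RMA makes differences of dim probes smaller. Of 23786 probe sets, 22458 had 1 symbol, 0 had several and 1328 had none and were left out. The array medians were 4.92 (LXR623) and 4.88 (control).

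The members and lists were chosen with earlier results of these data known. Named were all members, other translation genes past 0.32 or highest and lowest in their list, and ABCA1. MKNK1, PDCD4, DENR, the motifs and TOP-like starts were chosen after values were seen. Genes were kept from the 25th percentile of mean level. The 5 level groups used the genes kept. Scripts were tested on simulated data. Sequences came from RefSeq tables (GRCh38.p14). Alternatives were median centring, a lowess curve (span 0.3), other filters, a mean, other thresholds and left-out members. Python 3.11.15, numpy 2.4.6, pandas 2.3.3, statsmodels 0.14.6 and matplotlib 3.10.9 were used.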

Additional observations from a re-analysis of the deposited data

How the results depend on the processing

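Of 133 summary values under alternatives, 120 differed from the reported value by less than 0.05 on the log2 scale, or for counts by at most 1.5 times, and 13 by more. Part of this agreement was fixed beforehand. Median centring shifts every difference by 0.040, less than 0.05, so its medians could not count as changed. Leaving out copies by name changed no value, because the only member it removed, EIF5AL1, already lay below the level filter. Without the level filter the EIF4EBP median was 0.17, since EIF4EBP3 then entered. With the filter raised to the 50th percentile, fewer genes entered, of which 436 were past 1.5-fold (218 in each direction) together with 3 other translation genes past a difference of 0.32. It also gave -0.16 for the median of the EIF4E relatives, against 0.07 as reported. The stricter limits, 2-fold for 1.5-fold and 1.5-fold for a difference of 0.32, left 85 of all genes (57 higher, 28 lower) and 0 initiation factors, and 1 initiation factor (EIF4EBP1) and 1 other translation gene (MKNK2), by construction. The mean gave 0.19 for EIF1 and 0.024 for the eIF2 trimer. Without its most extreme member the EIF1 median was 0.21, that of EIF4EBP 0.17 and that of EIF4E with its relatives -0.16. Median centring turned all-gene calls to 319 higher and 427 lower, against 402 and 339 as deposited, and put the median of all initiation factors at -0.03. Of the members, 4 changed sign under a scaling, the largest of them 0.04 as deposited. Leaving out members with a close paralog in the family, chosen after the data were seen, left 5 past 0.32 (4 higher, 1 lower). Protein identity between members was not run, so the planned exclusion of copies went by name alone. No paired analysis was possible because a single array stood for either condition. Signal over background was not analysed here, and dim probe sets such as EIF4E3 limit what the arrays resolve.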
